A study of Homo sapiens with 7 samples.

Results

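RBFOX2 messages in the library named G3 began mostly at the distal of the gene's main pair of first exons, and those in the library named G5 almost only at the proximal one. Those 2 libraries were chosen from the 7 of the series as opposite in their first exons, with earlier values of these data known. They are compared here directly, with the control left out of the contrast and used only as a further reading. Both come from the embryonic stem cell line HUES66, which is human and established. Each carries the genotype label RBFOX2 isoform KD and a piggyBac label, piggyBac being a transposon used to insert DNA into the genome. G3 carries the RBFOX2 id 178147 and G5 the id 178149. Both cultures, like the wild-type control, received doxycycline at 1 µg/ml and were taken at 24 h. The other libraries, G11, G12, G13 and G14, carry the same genotype label and other ids. The knockdown tool was Cas13d, an RNA-guided nuclease that cleaves RNA, and the series asks whether single RBFOX2 isoforms can be lowered with it. The labels do not say which isoform an id denotes, whether a culture was 1 clone or a pool, or how the control was guided.

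Full-length polyadenylated RNA was read on the PacBio Revio system from cDNA joined into 8-fold arrays. The library totals were 17848097 reads in G3 and 25452450 in G5, within a range of 16801844 to 26678540 over the 7 libraries. Each library is a single sample, so no difference between G3 and G5 has a replicate check, and no p-value across genes is given. Levels are in TPM, which in these data are reads per library total and do not account for transcript length. Intervals are at 95% and cover counting error only, since the reads carry no molecular identifiers.

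RBFOX2 encodes an RNA-binding protein that recognises the sequence UGCAUG in pre-mRNA and promotes or represses inclusion of nearby exons, depending on which side of the exon it binds. RBFOX1 and RBFOX3, its family members, act mainly in neurons and muscle, while RBFOX2 is the member known from embryonic stem cells. Alternative first exons let a gene make proteins that differ at the amino end and place their transcription under separate promoters.

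RBFOX2 is annotated by GENCODE 29 (GRCh38) on chromosome 22 from 35738736 to 36028425, minus strand. The proximal first exon is annotated at 35840192 to 35840407 and the distal one at 36028240 to 36028425, with 187832 bases between them. The sequences below are the coding parts of these exons, shown because the shares of messages that begin at them differ between G3 and G5. They were read from GENCODE 29 transcripts and run 5′ to 3′ on the minus strand. In the first line the capitals mark the 27 coding bases of the proximal exon (chr22:35840192-35840218), and the lower case is the start of the next exon at 35809780 to 35810004. In the second line the capitals mark the start codon of the distal exon, which is coding from end to end of the 186 bases that are annotated (chr22:36028240-36028425). In the third line the capitals mark the last 27 bases of the distal exon and the lower case the start of its next exon at 35938847 to 35938897.
Proximal first exon and junction: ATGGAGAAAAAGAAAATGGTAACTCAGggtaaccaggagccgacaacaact
Distal first exon: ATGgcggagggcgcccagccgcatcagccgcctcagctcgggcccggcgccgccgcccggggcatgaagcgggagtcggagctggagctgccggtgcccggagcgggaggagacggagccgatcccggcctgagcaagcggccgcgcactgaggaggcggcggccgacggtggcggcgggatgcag
Distal first exon junction: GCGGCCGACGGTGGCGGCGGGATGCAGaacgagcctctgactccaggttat
Each exon brings its own start codon. The proximal coding stretch has a GC content of 33.3% and the distal one of 78.0%. The annotated proximal transcript ENST00000416721 and the distal transcript ENST00000438146 share 9 exons, of 13 and 14 in all.

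The total of RBFOX2, the targeted gene, was read first. It held 751 reads in G3 and 2464 in G5, that is 42.1 and 96.8 TPM. The control had 107 TPM, and G11, G12, G13 and G14 had 82.9, 88.5, 55.9 and 106 TPM. G3 was thus below every other library and G5 inside their range. The G5 total was 2.30 times that of G3 (95% interval 2.12 to 2.50), a log2 ratio of -1.19 for G3 over G5. RBFOX1 had 0 reads in G3 and 7 in G5, where the 0 allows up to 0.168 TPM in G3, and RBFOX3 had 2 and 1 reads. A change in the total of those family members was not detectable at this depth.

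The difference in total was the sum of opposite differences at the 2 first exons. The pair was called opposite in its first exons from earlier values, so the values by first exon are a description and carry no test. Of the 106 listed isoforms of RBFOX2, 60 began at the proximal first exon, 29 at the distal one and 17 elsewhere. Proximal isoforms held 225 reads in G3 and 2283 in G5, or 12.6 and 89.7 TPM. The control had 77.7 TPM of them, and G11, G12, G13 and G14 had 68.2, 71.4, 47.2 and 80.3 TPM. G3 was the lowest of the 7 libraries and G5 the highest, and the G5 level was 7.12 times that of G3 (6.20 to 8.20).

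Distal isoforms ran the other way. They held 492 reads in G3 and 88 in G5, or 27.6 and 3.46 TPM. The control had 25.2 TPM, and the other libraries, in the same order, had 12.7, 14.8, 7.19 and 23.6 TPM. Here G3 was the highest of the 7 and G5 the lowest, and G3 was 7.97 times G5 (6.34 to 10.1). In G3 the distal level was near the control, with overlapping counting intervals of 25.2 to 30.1 and 22.8 to 27.7 TPM, and in G5 the proximal level of 86.1 to 93.5 TPM lay above the control's 73.6 to 82.1. Isoforms that began elsewhere held 34 and 93 reads.

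**Figure D1:**
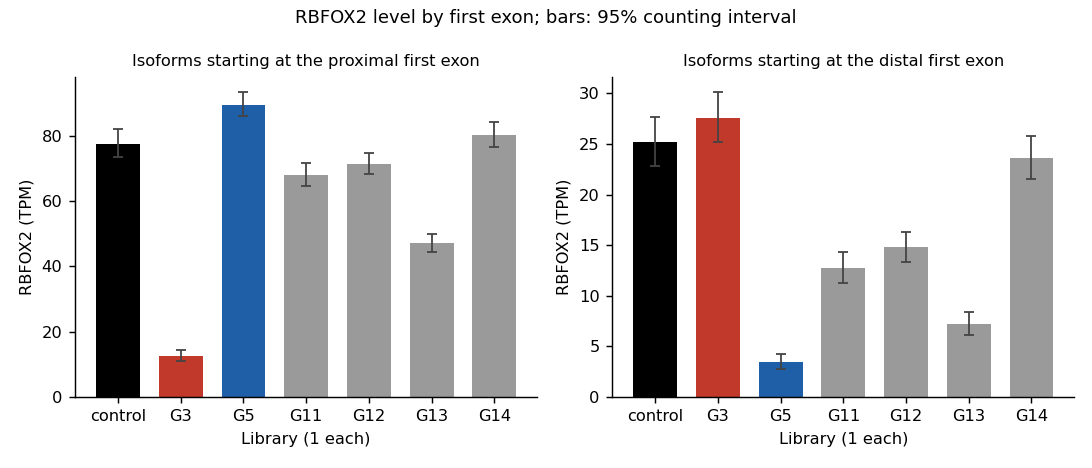
RBFOX2 level in TPM (vertical axes, different scales) of isoforms beginning at the proximal (left) and the distal first exon (right), by library; bars are single libraries and whiskers the 95% counting interval. G3 is lowest on the left at 12.6 TPM and highest on the right at 27.6 TPM, and G5 is highest on the left at 89.7 TPM and lowest on the right at 3.46 TPM.

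Of the reads that began at either first exon, the proximal exon held 31.4% in G3 (Wilson interval 28.1 to 34.9) and 96.3% in G5 (95.4 to 97.0). The control stood between them at 75.5%, as did G11, G12, G13 and G14 at 84.3%, 82.9%, 86.8% and 77.3%. G3 is the one library of the series in which distal reads outnumbered proximal ones.

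Distal reads themselves began at 2 clusters of positions, 36028433 to 36028531 and 36028777 to 36028824. The cluster nearer the annotated exon held 197 of the 492 distal reads in G3 (40.0%) and 39 of 88 in G5 (44.3%), against 39.7% in the control and 10.7% to 83.5% over the 5 libraries other than G3 and G5. The minor starts outside the first exons differed by fewer percentage points. At 35809923 to 35810006, in the exon that follows the proximal one, began 26 reads in G3 and 92 in G5, 3.46% and 3.73% of the gene. At 35938870 to 35938899, in the exon that follows the distal one, began 8 and 1 reads, 1.07% and 0.0406% of the gene, a share of G5 that rests on 1 read.

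The isoforms that held at least 5% of RBFOX2 on average over G3 and G5 numbered 7. Isoforms without a reference ID are called unannotated here and numbered by that mean share. The leading proximal isoform, ENST00000416721.6 (35743911 to 35840482), had 59 reads in G3 and 887 in G5, or 3.31 and 34.8 TPM. The control had 28.1 TPM and G11 to G14 had 38.5, 15.6, 5.75 and 45.2 TPM, so G3 was the lowest of all. The G3 level was 9.49% of that of G5 (7.16 to 12.4). ENST00000449924.6 (35738737 to 35840482) had 2.24 TPM in G3 and 19.5 in G5, 8.70 times as much (6.29 to 12.3). Unannotated isoforms 2 and 3, also proximal, were 7.09 times (5.24 to 9.78) and 6.55 times (4.46 to 9.97) higher in G5. All 4 proximal isoforms were thus lower in G3 by factors whose intervals overlap.

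The 3 distal isoforms of this set differed in the opposite direction. Unannotated isoform 1 (35743911 to 36028777) had 195 reads in G3 and 25 in G5, or 10.9 and 0.982 TPM. The control had 9.28 TPM and G11 to G14 had 7.73, 2.81, 0.658 and 12.4 TPM, so G5 was below all but G13. G3 was 11.1 times G5 (7.31 to 17.6). Unannotated isoform 4 was 6.92 times higher in G3 (4.24 to 11.8) and ENST00000695854.1 was 5.10 times higher (3.27 to 8.21). The annotated distal transcript ENST00000438146.7, which holds a mean share of 3.44% and is named after its values were seen, had 49 reads in G3 and 9 in G5.

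Whether the messages that share a first exon kept their proportions was asked next, a comparison the choice of the pair did not use. Fisher's exact test (two-sided) was run on G3 and G5 reads for 22 isoforms, 3′ end clusters, start clusters and internal exon forms within a first exon. It compares those 2 libraries, not the conditions. The 22 are not independent, since some overlap or hold the same reads. The proximal end at 35738737 and ENST00000449924.6, for example, both had 40 reads in G3 and 496 in G5. After Benjamini-Hochberg adjustment 3 of the 22 passed 0.05, all among proximal messages. ENST00000416721.6 made up 26.2% of the proximal reads in G3 (20.9 to 32.3) and 38.9% in G5 (36.9 to 40.9), adjusted p = 0.00185 by Fisher's exact test. The control had 36.1%, and the other 5 libraries spanned 12.2% to 56.5%, so both values lie inside the range of the series. Messages ending at 35744105 to 35744117 held 9.78% of the proximal reads in G3 and 2.80% in G5, adjusted p = 6.91e-05 by Fisher's exact test. The other 5 libraries spanned 3.62% to 6.81%, with G3 above and G5 below them. Unannotated isoform 6 held 4.44% in G3 and 0.964% in G5, adjusted p = 0.00223 by Fisher's exact test, with 3.52% in the control.

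The remaining proximal forms did not pass. The nearest was the 144-nt form of the exon at 35781600, which is 144 or 147 nt long, with 95.3% of the annotated proximal reads in G3 and 98.9% in G5 (p = 0.0125 unadjusted, 0.0688 adjusted, Fisher's exact test), where the others had 96.4% to 99.7%. The 133-nt form of the exon at 35759888, which is 133 or 145 nt long, held 60.4% of the annotated proximal reads in G3 (50.9 to 69.2) and 64.0% in G5 (61.5 to 66.5), adjusted p = 0.775 by Fisher's exact test. Among distal messages none passed after adjustment. The nearest was ENST00000695854.1, with 18.9% of the distal reads in G3 and 29.5% in G5 (p = 0.0308 unadjusted, 0.126 adjusted, Fisher's exact test). Only 88 distal reads in G5 back these shares, and the interval of that G5 share runs from 21.0% to 39.8%.

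**Figure D2:**
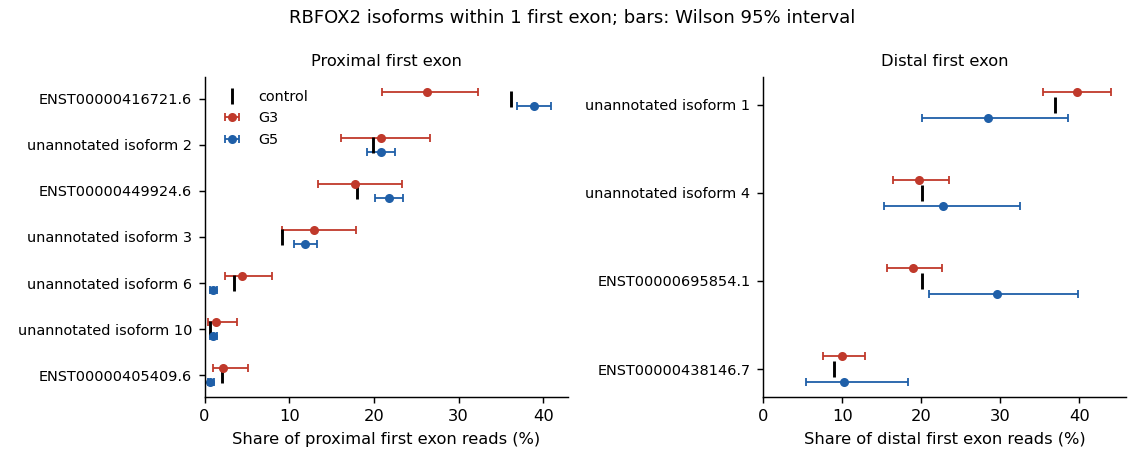
Share of the reads of a first exon (horizontal axes, %) held by each isoform with at least 20 reads in G3 and G5 together; points are G3 (red) and G5 (blue) with Wilson 95% intervals, and black ticks the control. ENST00000416721.6 stands at 26.2% in G3 and 38.9% in G5, and the intervals of all 4 distal isoforms overlap.

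The 3′ ends of RBFOX2 differed between the libraries along with the first exons. The cluster of ends at 35738737, the most downstream, held 5.33% of all RBFOX2 reads in G3 and 20.1% in G5. The cluster at 35743599 to 35743602 held 12.9% in G3 and 0.812% in G5, and all 97 and 20 of these reads belonged to distal messages. Within the proximal messages the end at 35738737 held 17.8% in G3 and 21.7% in G5, adjusted p = 0.491 by Fisher's exact test. Within distal messages the end at 35743599 to 35743602 held 19.7% and 22.7%, adjusted p = 0.775 by Fisher's exact test.

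The question then was whether other genes differed in first exon usage as RBFOX2 did. Listed isoforms of a gene were grouped by 5′ end, joining ends within 100 bases, and the largest difference of the share of 1 group between G3 and G5 was taken. Among 7750 genes with at least 50 reads in each library, RBFOX2 ranked 1, at 62.7 percentage points, and the median gene differed by 0.238 points. Differences of at least 20 points were seen in 35 genes, 0.452% of those compared. Because the pair was chosen for this feature of RBFOX2, its rank is a description. In 29 of the 35 genes, RBFOX2 among them, the start group that was higher in G3 lay upstream of the group that was higher in G5. G3 lay outside the range of the 5 libraries other than G3 and G5 in 33 of the 35, and G5 in 3. The 35 were selected for a difference between G3 and G5, and the same counts over all 7750 genes were not taken.

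After RBFOX2, the largest start differences among genes with at least 200 reads in each library were those of RUFY1, COL4A2, HNRNPL, RAP2C and OBSL1. RUFY1 encodes an adaptor protein of endosomes. Its upstream start group at chromosome 5, 179550550 to 179550612, held 73.0% in G3 and 32.4% in G5. The control had 42.8% and G11 to G14 had 19.3%, 16.7%, 24.5% and 60.1%, so G3 was the highest of the 7. COL4A2, a basement membrane collagen chain, had 64.5% of its reads at the downstream of its main pair of start groups, 110307248 to 110307296 on chromosome 13, in G3 and 25.1% in G5. The control had 42.9% and the other 4 libraries between 5.91% and 8.23%.

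HNRNPL encodes a splicing regulator that binds CA repeats, and it had the deepest coverage of these genes, at 3794 reads in G3 and 1783 in G5. Its upstream starts at chromosome 19, 38849923 to 38849996, held 84.4% of the reads in G3 (83.3 to 85.6) and 48.6% in G5 (46.3 to 50.9). The control had 59.2% and G11 to G14 had 30.5%, 25.2%, 23.2% and 44.1%. The downstream starts at 38847344 to 38847435 held 6.54% in G3 and 23.8% in G5. The total of HNRNPL was also higher in G3, at 213 TPM against 70.1 TPM in G5. RAP2C, a small GTPase gene, began at 132218032 to 132218112 on chromosome X in 64.4% of reads in G3 and 30.5% in G5. OBSL1, which encodes a cytoskeletal adaptor, began at 219571265 to 219571548 on chromosome 2 in 81.2% of reads in G3 and 48.2% in G5. In each of the 5 genes G3 was the highest of the 7 libraries at the group named, which was the upstream one in all but COL4A2. RBFOX2 was the only gene of the 6 whose total was lower in G3.

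**Figure D3:**
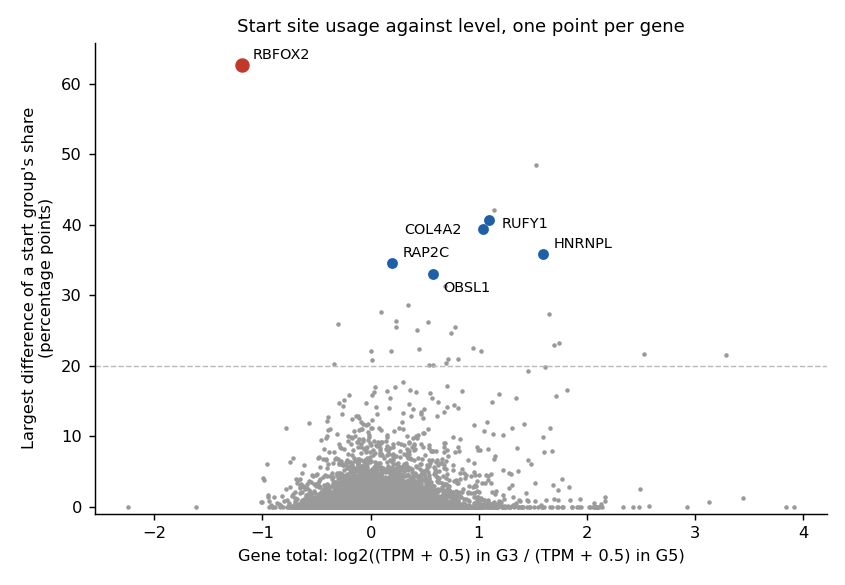
Largest difference of a start group's share between G3 and G5 (vertical axis, percentage points) against the log2 ratio of the gene total (horizontal axis), with 1 point per gene, the RBFOX2 point in red and the next 5 genes with at least 200 reads in each library in blue. RBFOX2 stands alone at 62.7 points and a log2 ratio of -1.19; the dashed line marks 20 points.

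Isoform usage as a whole was summed up in a usage distance, the total variation distance between the isoform shares of a gene. It runs from 0, for equal shares, to 1, for no isoform in common. The distance of RBFOX2 was 0.662 and that of the median gene 0.0407. A distance of at least 0.3 was reached by 47 genes, 0.606% of the 7750. With at least 200 reads in each library, RBFOX2 was followed by ACTG1, OBSL1, DEAF1, RUFY1, LEMD2, HNRNPL and FCF1. ACTG1, which encodes cytoplasmic gamma actin, differed in isoforms whose starts lay together: ENST00000573283.7 held 80.2% in G3 and 33.9% in G5. The control and G11 to G14 had 32.4%, 24.3%, 25.8%, 20.2% and 24.1%, so G5 was near the others and G3 apart. ENST00000576544.6 was the counterpart, at 17.3% in G3 and 63.0% in G5. ACTG1 has many near-identical copies in the genome, so the assignment of its reads is uncertain.

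DEAF1 encodes a transcription factor, and its isoform ENST00000382409.4 held 76.0% in G3 and 39.1% in G5, with 28.1% to 51.6% in the others. LEMD2 encodes a protein of the inner nuclear membrane, and ENST00000293760.10 held 88.5% in G3 and 47.9% in G5, with 9.76% to 63.3% in the others. FCF1 takes part in ribosomal RNA processing and differed by a spread of smaller shifts over 421 listed isoforms, the largest being 24.5% in G3 and 37.4% in G5 for 1 unannotated isoform. G3 was the library outside the others' range for DEAF1 and LEMD2, while for this FCF1 isoform G5 lay just above a range of 22.7% to 37.1%.

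A 3′ end group differed by at least 20 points in 16 genes, 0.206% of the 7750, and RBFOX2 ranked 34 at 16.7 points. EPRS1, the glutamyl-prolyl tRNA synthetase gene, ended at 219968599 to 219968608 on chromosome 1 in 46.7% of reads in G3 and 76.4% in G5. The control had 22.4% and G11 to G14 had 79.8%, 72.6%, 82.0% and 88.2%, so here the control lay below both. SKIL, a repressor in TGF-beta signalling, ended at 170396828 to 170396833 on chromosome 3 in 41.8% of reads in G3 and 65.7% in G5, with 69.6% to 78.3% in the others.

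Gene totals were compared for 7877 genes with a mean of at least 5 TPM over the 7 libraries, as the log2 ratio of TPM plus 0.5, which understates the ratio of weakly expressed genes. The median log2 ratio of G3 to G5 was 0.04 and its SD over genes 0.41. At least 2-fold higher in G3 were 189 genes, 2.40% of those compared, and at least 2-fold lower were 8, or 0.102%. RBFOX2 was among the 8. G3 was the highest of the 7 libraries for 167 of the 189 genes, and G5 lay inside the range of the other 5 for 175. The control stood between G3 and G5 for 153. Because the 189 were selected for G3 above G5, a high rank of G3 among them is favoured in advance. The mean over the 7 libraries also includes G3, so a gene high mainly in G3 can pass the filter through G3 alone. The same counts over all genes compared were not taken. Over the 189 genes the median log2 ratio was 0.99 for G3 over the control and -0.44 for G5 over the control, and both ratios share that control library.

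The ratios moved with base composition. In the fifth of genes with the lowest GC content the median log2 ratio was -0.15, and in the fifth with the highest it was 0.32. The 189 genes had a median GC content of 57.9%, against 47.9% over all genes compared, and a median level of 12.1 TPM, against 37.8 TPM. A quadratic trend on transcript length and GC content took up 22.8% of the variance of the ratios. After its removal 119 genes were at least 2-fold higher in G3 and 11 lower, of which 113 and 8 were among those above. The median over genes was then -0.04, the value to set beside list medians given after removal of the trend. The part of the trend in the differences of single genes was not tested.

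Among genes with a mean of at least 10 TPM, SFPQ was the highest. It encodes a splicing factor that is a core protein of nuclear paraspeckles. The mean used for this minimum includes G3. SFPQ, COL18A1 and PRRC2A, low in most other libraries, reached it only through their G3 values. SFPQ (chromosome 1, 35176378 to 35193148) had 79.9 TPM in G3 and 4.83 in G5, from 1426 and 123 reads. The control had 11.1 TPM and G11 to G14 had 1.15, 0.450, 0.790 and 4.01 TPM, so G3 was above every other library, and G5 was next after the control. The log2 ratio was 3.91 and stayed at 3.90 after removal of the trend. COL18A1, which encodes a basement membrane collagen, had 98.0 TPM in G3 and 6.40 in G5, with 22.4 TPM in the control and at most 0.412 TPM in G11 to G14. PHLDA3, a p53 target that restrains AKT signalling, had 79.8 and 10.1 TPM, with 30.7 TPM in the control. In these 3 genes the order was G3, control, G5 and then, except for PHLDA3 in G14, the other libraries.

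KDM1A encodes the histone demethylase LSD1, and had 97.5 TPM in G3 and 17.1 in G5, with 9.34 to 34.9 TPM in the other 5. RCOR1 encodes CoREST, the partner through which LSD1 acts on nucleosomes, and was among the 8 genes at least 2-fold lower in G3, at 2.41 TPM against 7.50, with 5.53 to 11.4 TPM in the others. The log2 ratios of KDM1A and RCOR1 were 2.48 and -1.46, and RCOR1 rests on 43 reads in G3 and 191 in G5. They were set side by side after their values were seen, and no list of LSD1 partners was compared. LEMD2 had 51.2 TPM in G3 and 8.45 in G5, a log2 ratio of 2.53. PRRC2A, which encodes an RNA-binding protein, had 46.1 and 7.35 TPM, with 18.4 TPM in the control and at most 0.286 TPM in G11 to G14.

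SSBP4, a member of a family of single-stranded DNA-binding proteins, CHPT1, which makes phosphatidylcholine, SH2B2, a signalling adaptor, and DEXI completed the 10. Their log2 ratios were 2.49, 2.42, 2.13 and 2.09. SH2B2, with a GC content of 74.0%, dropped to 1.26 after removal of the trend, the largest such move of the 9 that have a length and GC value; COL18A1 has none. Genes with a control at least 1.5-fold from both G3 and G5 and between them numbered 23 of 6619, in each of which G3 was the higher. SFPQ, COL18A1, PHLDA3, PRRC2A, SSBP4 and SH2B2 led these 23.

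IGFBP2 was the lowest gene. It encodes a secreted protein that binds insulin-like growth factors. IGFBP2 (chromosome 2, 216632828 to 216664436) had 311 TPM in G3 and 1475 in G5, from 5551 and 37541 reads. The control had 3823 TPM and G11 to G14 had 2538, 4363, 3592 and 4701 TPM, so both libraries were below all others and G3 the lower of them. G5 was 4.74 times G3 (4.61 to 4.88). Its GC content of 67.7% goes against the general trend, and the log2 ratio of -2.24 became -2.82 after removal of the trend.

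TOP2A, the topoisomerase of dividing cells, had 5.60 TPM in G3 and 18.2 in G5. G11 to G14 had 22.8 to 39.0 TPM, while the control, at 4.34 TPM, was the lowest of the 7. RABGGTB, a subunit of the enzyme that attaches lipids to Rab proteins, had 1.74 and 6.56 TPM, and DENR, a factor in translation reinitiation, had 2.75 and 7.15 TPM. For both, the control was above either library, at 25.4 and 16.0 TPM. TAF13, a subunit of TFIID, had 2.91 and 6.40 TPM, and PSMC3IP, a recombination factor, 10.1 and 20.8 TPM. Each stood at the edge of the threshold, G5 being 2.20 times G3 for TAF13 and 2.05 times for PSMC3IP before the pseudocount, and left the 8 under a pseudocount of 1 or rescaling by the median of ratios.

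Just outside the threshold were STC1, UAP1, POU2F1 and CTNNB1. CTNNB1 encodes beta-catenin, the effector of canonical WNT signalling, and had 52.5 TPM in G3 and 101 in G5, with 75.5 to 108 TPM in the others, so G3 was the lowest of the 7. POU2F1 encodes the transcription factor OCT1 and had 32.4 and 63.1 TPM. SELENOO, a mitochondrial selenoprotein gene rich in GC, entered the 5 lowest only after removal of the trend, where its log2 ratio of -0.69 became -1.27.

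**Figure D4:**
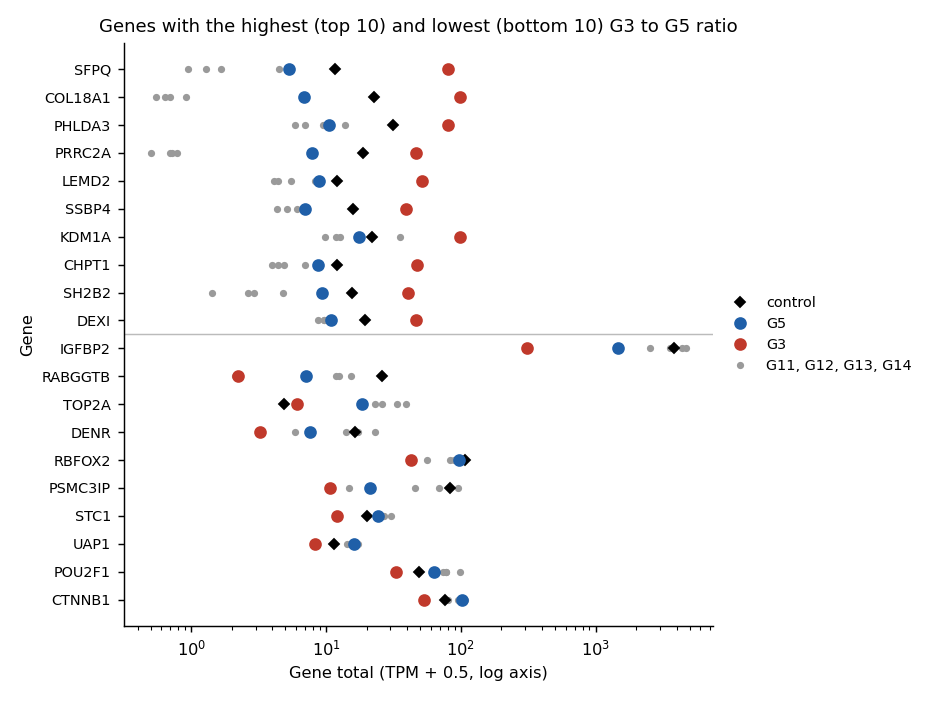
Gene totals (horizontal log axis, TPM + 0.5) in the 7 libraries for the 10 genes highest and the 10 lowest in the ratio of G3 to G5 with a mean of at least 10 TPM. For the upper 10 the red G3 points lie right of all other libraries, and for IGFBP2 both G3 at 311 TPM and G5 at 1475 TPM lie left of the rest.

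The other pairs of libraries show how far single libraries of this series differ. Of the 21 pairs, which share libraries, G3 and G5 ranked 3 from the lowest in genes at least 2-fold apart, at 197, and 3 from the lowest in genes with a usage distance of at least 0.3. In genes with a start difference of at least 20 points the pair ranked 9. The start difference of RBFOX2 itself was largest in this pair. It was 42.5 to 54.4 points between G3 and the other 5 libraries and at most 20.2 points in pairs without G3. The usage distance of RBFOX2 was higher in 1 other pair, G13 and G14, at 0.737, where its start difference was 17.8 points.

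Genes tied to RBFOX proteins as splicing targets or partners were read as lists. Of 18 genes taken from general knowledge as RBFOX splicing targets, 12 passed the filter on low values. Of these 1 was at least 2-fold higher in G3 and none was lower, where 2.40% of all genes compared were higher and 0.102% lower, and the median log2 ratio was -0.02. The higher one was CLSTN1, a neuronal cadherin-related gene, at 41.0 TPM in G3 and 17.2 in G5, while the control had 18.8 TPM and G11 to G14 0.790 to 4.99 TPM. Its log2 ratio of 1.23 was 0.94 after removal of the trend. EWSR1, the most highly expressed, had 1647 and 2102 TPM. None of the 12 reached a usage distance of 0.3. The largest was 0.270 for EPB41, a membrane skeleton gene, followed by 0.203 for PICALM, an endocytic adaptor, whose isoform ENST00000532317.5 held 29.3% in G3 and 21.0% in G5, with 22.2% to 26.8% in the others. The median distance of the 12 was 0.0773, against 0.0407 over all genes compared. It was 0.0739 for ZNF zinc finger genes and 0.0592 for cytosolic ribosomal protein genes, while other lists were lower, such as proteasome genes at 0.00785. The part of read depth in these medians was not tested.

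The 7 measured partners of the LASR complex, the assembly of splicing factors that RBFOX proteins join, had no member past 2-fold. In this list and the next 3, counts of members past 2-fold stand beside the 2.40% of all genes that were higher and the 0.102% that were lower. Their median log2 ratio was -0.11, and 0.02 after removal of the trend. HNRNPM had 873 TPM in G3 and 1308 in G5, and ILF2, the most abundant, 2303 and 2799 TPM. Of 18 HNRNP genes 1 was higher, HNRNPL, and none lower, with a median of 0.05; HNRNPK, the most abundant, had 3729 and 4732 TPM. Of 11 SR protein genes 1 was higher, SRSF9 at 662 and 316 TPM, where the control had 667 TPM and G3 was thus the library near it. The log2 ratio of SRSF9 went from 1.06 to 0.93 with the trend removed, and the median of the SR genes was -0.03. Of 11 factors of nonsense-mediated decay 1 was higher, UPF3B at 20.3 and 6.80 TPM, with 0.658 to 5.77 TPM in the others. UPF3B passed the filter on low values only through its G3 value, so its call is no independent count. The median of the 11 was -0.01.

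Those markers of the cell state that were listed were close between the libraries. Listed were 15 of 16 named pluripotency, 4 of 10 ectoderm, 8 of 12 mesendoderm and 6 of 10 fibroblast genes. A gene without a read in the control is not listed, so a marker present only in G3 or G5 could not be seen. The 15 listed pluripotency genes summed to 2591 TPM in G3 and 2516 in G5, within a range of 1982 to 2662 TPM over the series, and none of the 13 compared was past 2-fold, with a median log2 ratio of -0.03. DPPA4, the most abundant, had 866 and 1002 TPM, and TERF1, with the largest ratio, 468 and 288 TPM. POU5F1 had 588 and 557 TPM; it, NANOG and LIN28A have related copies in the genome, so their reads are uncertain. LIN28A and NANOG passed the usage distance of 0.3, at 0.365 and 0.319, 2 of the 13 compared, where 0.606% of all genes passed it. Mesendoderm genes summed to 3.98 and 3.42 TPM, with TBXT, GATA4 and FOXA2 at 0 reads in both and no member high enough to be compared. Ectoderm genes summed to 230 and 209 TPM, nearly all of it OTX2 and TUBB3, which stem cells also express, with NES at 2 and 0 reads. Fibroblast genes summed to 848 and 938 TPM, of which THY1, also a stem cell marker, gave 808 and 907 TPM. COL1A1, a fibrillar collagen chain, had 30.3 and 16.7 TPM, and its partner chain COL1A2 went the other way, at 8.24 and 13.3 TPM. None of the 2 ectoderm and 3 fibroblast genes compared was past 2-fold, and their median log2 ratios were 0.21 and -0.17, or -0.07 and -0.41 after removal of the trend.

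Among the housekeeping lists, cytosolic ribosomal protein genes stood highest. In these lists too, 2.40% of all genes is the share to set beside a count of members at least 2-fold higher. Counts by sign stand beside all genes, of which more lay above 0 than below. The log2 ratios of all genes had a median of 0.04 and quartiles of -0.19 and 0.29. Of 68 compared, 63 had a ratio above 0 and 1 was at least 2-fold higher, RPS2 at 111 and 44.2 TPM, with 158 TPM in the control. Copies of RPS2 elsewhere in the genome leave its reads uncertain, and its log2 ratio of 1.32 was 0.99 after removal of the trend. RPL3, the most abundant, had 3551 and 3243 TPM, with 5156 TPM in the control. The median of the 68 was 0.36, against 0.04 for all genes. After removal of the trend it was 0.20, against -0.04. These transcripts are short, with a median of 979 bases, and in the fifth of genes with the shortest transcripts the median was 0.23. Mitochondrial ribosomal proteins had a median of 0.17 over 74 genes with none past 2-fold, and respiratory chain subunits 0.14 over 70 with 1 higher, ATP5F1D at 26.3 and 11.9 TPM. After removal of the trend these medians were 0.03 and -0.06, and ATP5F1D went from 1.11 to 0.43. The 17 glycolysis genes had a median of 0.08 with 1 higher, GAPDH, at 3214 and 1606 TPM. GAPDH has many copies, and its log2 ratio of 1.00 was 0.75 after removal of the trend. The 34 proteasome genes had a median of 0.02 and the 21 cholesterol synthesis genes 0.01, with none past 2-fold.

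Genes of the cell cycle had low medians. Over all genes the median log2 ratio was 0.04, so fewer lay below 0 than above it. The 22 mitosis genes had a median of -0.29, and -0.21 after removal of the trend, with 18 below 0 and none past 2-fold. BUB1, a spindle checkpoint kinase, had 119 TPM in G3 and 187 in G5, with 138 TPM in the control, and CCNB1, which encodes cyclin B1, had 1618 and 1886 TPM. The 29 DNA replication genes had a median of -0.21, and -0.24 after removal of the trend, with 22 below 0; MCM6, a subunit of the replicative helicase, had 122 and 202 TPM, with 128 TPM in the control. For MCM6 the control was thus beside G3, and G11 to G14 were above G5. No list of this kind had a member past 2-fold among heat shock proteins (18 genes, median -0.12), stress response genes (13, median -0.09), interferon response genes (6, median -0.11), large chromatin genes (4, median -0.16) or ZNF zinc finger genes (239, median -0.10). Among 9 p53 targets, with a median of 0.00, 1 was at least 2-fold higher, BBC3, at 24.9 and 9.86 TPM. Its log2 ratio of 1.30 was 0.71 after removal of the trend. Beside the counts of this paragraph stand 2.40% of all genes that were higher and 0.102% that were lower. PHLDA3, named above as a p53 target, was not on the p53 list.

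**Figure D5:**
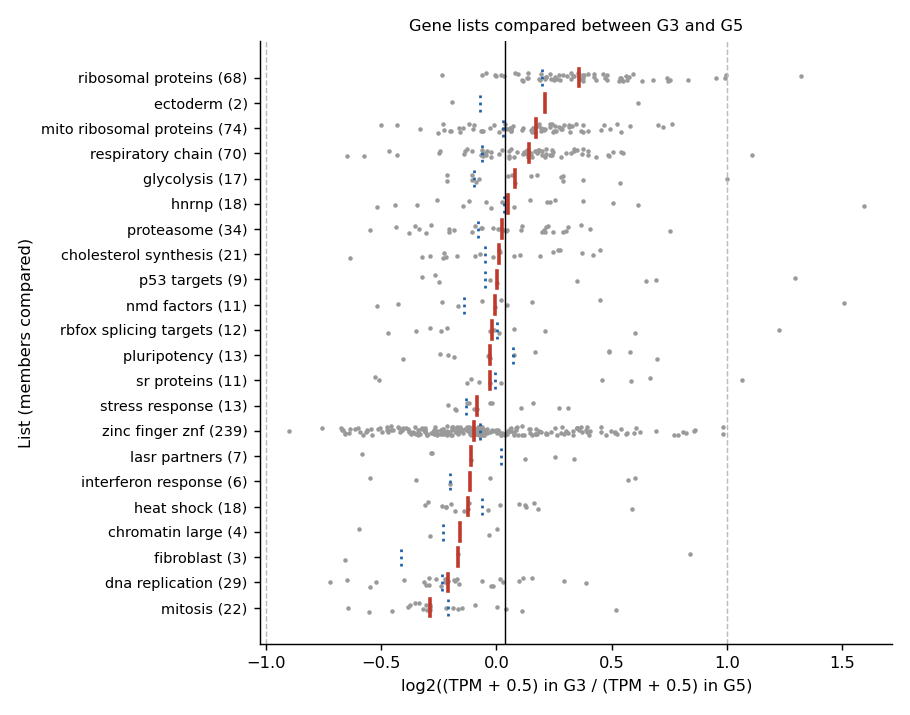
Log2 ratio of G3 to G5 (horizontal axis) for the members compared (grey points) of each list with at least 2 such members, with the list's median (red) and its median after removal of the length and GC trend (blue, dotted). The black line is the median of all genes at 0.04, before removal of the trend, and dashed lines mark 2-fold. After removal that median was -0.04. Of the red medians shown, that of ribosomal proteins is the highest at 0.36 and that of mitosis genes the lowest at -0.29.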

How the data were processed

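The authors deposited 1 table for the 7 libraries, each a single sample; per the file headers its columns are, for each isoform and library, counts of full-length reads and TPM. Per the submitters' processing notes, minimap2 2.17 and the builds GRCh38 and hg38 were used; the role of each, the isoform caller and its filters are not given in the sources used here. The deposited TPM equals the count divided by the library total, within 0.01, so it has no length term. All 386982 listed isoforms have a read in the control, and isoforms seen only in another library do not enter any value. They held 98.1% of the reads of G3 and 98.2% of those of G5.

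Isoforms were summed to genes by Ensembl stem, and empty cells were read as 0; 14287 of 14294 genes had a symbol. Loci without a gene ID, 0.127% of the listed reads in G3 and 0.115% in G5, stayed in the library totals only. The joint log2 ratio used a pseudocount of 0.5 TPM, a mean of at least 5 TPM and a 2-fold threshold, chosen by size because 1 library a side allows no test. GENCODE 29 gave a length and GC content for 7736 of the 7877 genes. Ratio intervals are exact, from the conditional binomial, and shares have Wilson intervals. Calculations used Python 3.11.15 and scipy 1.17.1. Gene ratios and the removal of the trend were run on simulated data, and the joining of ends on a small example. Usage distances, share differences, Fisher's exact tests and intervals were not tested in this way.

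Named were the RBFOX genes, RBFOX2 isoforms with a mean share of at least 5%, the 10 highest and 10 lowest ratios at 10 TPM or more, the 5 highest and 5 lowest after trend removal, and the 6 largest ratios with the control between. The 8 largest usage distances and 6 largest start differences at 200 reads or more were added; the remaining genes at least 2-fold lower, the 3′ end genes EPRS1 and SKIL, COL4A2 and RAP2C for usage, and the marker genes printed at 0 were chosen after their values were seen. List members were chosen for their ratio or level. The 24 lists were RBFOX family, splicing targets, LASR partners, HNRNP, SR, nonsense-mediated decay, pluripotency, ectoderm, mesendoderm, fibroblast, interferon, p53, stress, heat shock, cytosolic and mitochondrial ribosomal proteins, respiratory chain, proteasome, glycolysis, cholesterol synthesis, DNA replication, mitosis, large chromatin genes and ZNF genes. The pair, the lists and the rules were chosen with earlier results of these data known.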

Additional observations from a re-analysis of the deposited data

How the results depend on the processing

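Summing only isoforms with a reference ID moved the log2 ratio of the RBFOX2 total from -1.19 to -1.99 and the difference of the proximal first exon share (G3 minus G5) from -64.9 to -54.8 points; the cause was not tested. RBFOX2 kept rank 1 in usage distance and start difference under all 6 alternatives run for them. The joining distance does not enter the usage distance, and the read minimum only changes which genes are ranked. Genes at least 2-fold higher in G3 numbered 58 with a minimum of 20 TPM, 490 with no filter, 697 at 1.5-fold, 60 at 3-fold and 119 with the length and GC trend removed. Genes at least 2-fold lower numbered 4, 20, 140 and 3 under the first 4 of these settings and 13 with reference IDs only. Usage calls numbered 20 with isoforms of at least 1 TPM, 5 with reference IDs only, 243 and 13 at distances of 0.2 and 0.4, and 24 at 200 reads. Start calls numbered 125 and 9 at 10 and 30 points and 20 at 200 reads, and end calls 200 and 1 at 10 and 30 points. The medians of the RBFOX target, LASR, respiratory chain, glycolysis, proteasome, cholesterol synthesis, p53, pluripotency and ectoderm lists changed sign when the trend was removed, to between -0.10 and 0.07. The median of all genes changed sign with them, from 0.04 to -0.04. With a minimum of 20 TPM the medians of the RBFOX target, nonsense-mediated decay, p53 and interferon lists were -0.23, -0.24, -0.25 and -0.28. Reads with a reference ID were 86.8% of the total in both libraries. No paired analysis was possible because each group has 1 library and the groups share fewer than 2 replicate numbers. With 88 distal RBFOX2 reads in G5, shares among distal messages are the least precise values given.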

Other observations

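Some genes below the read or TPM minimum for named genes showed the same kind of difference between G3 and G5, and were picked after their values were seen. LONRF1, which encodes a ring finger protein, differed in a start group by 48.4 points, next to RBFOX2 among all genes compared, from 275 reads in G3 and 128 in G5. RRBP1, a ribosome-binding protein of the endoplasmic reticulum, differed by 42.1 points from 226 and 139 reads. SCAF1, which encodes a protein that binds the tail of RNA polymerase II, had 25.4 TPM in G3 and 2.16 in G5. The control had 20.1 TPM of SCAF1 and G11 to G14 at most 0.614 TPM, so G3 and the control stood together above the rest.

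UPF3A, the paralog of UPF3B in nonsense-mediated decay, had too low a mean to be compared. It had 144 reads in G3 and 67 in G5, or 8.07 and 2.63 TPM, where the control had 3.15 TPM and G11 to G14 had 0.525 to 0.668 TPM. TSC2, a brake on mTOR signalling and a listed RBFOX target, had 8.24 and 4.20 TPM, while the control had 5.12 TPM and G11 to G14 between 0 and 0.937 TPM. In both genes G3 was the highest of the 7 libraries, and the control and G5 were above the other 4.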
